A study of Mus musculus with 14 samples.

Results

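The 6 genes Fgf21, Adm2, Tac1, Bhlha15, Car6 and Cds1 encode hormones, neuropeptides, a transcription factor of secretory cells, a secreted enzyme and an enzyme of membrane lipid synthesis. They were chosen by their measured array signal, which was higher with the siRNA Si2AK than with the siRNA Si1AK, so that difference is given as a description and supports nothing. Each gene had 1 probe, which makes 6 of the 55681 probes left after control spots were set aside, and all 6 were among the 21356 genes tested. Fgf21 and Cds1 entered the tested set only through the Si2AK arrays, where alone every array of a group had them well above background.

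The cells were mSCC-38, a mouse line from a skin squamous cell carcinoma raised with the carcinogen DMBA and the tumour promoter TPA. Both Si2AK (3 samples) and Si1AK (4 samples) are siRNAs aimed at the transcript AK144841, delivered with the lipid reagent RNAimax, with RNA taken 72 h later. The comparison groups were SiC, a control siRNA given the same way for 72 h (3 samples), and NT, untransfected cells with no time stated (4 samples). No probe bore the name AK144841, so knockdown of the target was not analysed here, and all groups are 1 cell line whose replicates are not said to be separate cultures. A p-value here thus speaks only of how far these samples vary, and that variation may be technical.

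FGF21 is a hormone made mainly by liver that acts through a receptor paired with the co-receptor beta-Klotho, and its gene is a known target of ATF4, the transcription factor of the integrated stress response. That response is switched on when one of several kinases, among them the endoplasmic reticulum kinase PERK (gene Eif2ak3), phosphorylates the translation factor eIF2alpha. The endoplasmic reticulum also signals through IRE1, which splices the Xbp1 message, and through ATF6, and both raise chaperones and degradation factors of the secretory pathway. Adrenomedullin 2 (Adm2, also called intermedin) is a vasoactive peptide of the calcitonin family, and Tac1 encodes the precursor of substance P and neurokinin A. Bhlha15 encodes MIST1, a basic helix-loop-helix factor that XBP1 is known to act through in secretory cells such as pancreatic acini. Car6 encodes the secreted carbonic anhydrase of saliva, and Cds1 encodes a CDP-diacylglycerol synthase, which supplies the precursor of phosphatidylinositol.

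Levels are array signals given as a percentage of the 75th percentile signal of the same array, and they compare samples for 1 gene, never 1 gene with another. On 12 arrays 52.7% to 60.1% of spots were well above background, but the SiC replicate 1 array had 90.5% and the Si2AK replicate 2 array 84.9%. Among the 13704 probes below background on all of the other 12 arrays, the median level was 3.67% on Si2AK replicate 2 and 10.5% on SiC replicate 1, against 0.317% to 1.03% elsewhere. A low value on those 2 arrays is thus hard to read: on SiC replicate 1, 98.5% of these dim probes were at or above Fgf21, 87.9% at or above Cds1, 75.4% at or above Tac1 and 37.6% at or above Bhlha15. The part of the 2 arrays in the results was not tested, and measured differences without both are given with each of the 6 genes. Of 8 epithelial markers, Krt5, Krt14, Krt18, Trp63, Krt6a and Epcam were well above background on all 14 arrays and Krt8 on 13, while Cdh1, the E-cadherin gene, was so on only 2, at 0.788% to 18.4% over all arrays. Of markers of the tissues best known for these 6 genes, the liver genes Alb and Apoa1 and the acinar genes Amy1, Amy2a5, Cpa1 and Pnlip were well above background on only 2 arrays each. Of 9 acinar markers 2 were well above background on all arrays of each group, and their summed level, mostly Aqp5, was 690% to 924% in Si2AK, 1340% to 1450% in Si1AK, 1450% to 1580% in SiC and 1270% to 1450% in NT. The 6 liver markers, 2 of them above background throughout, summed to 152% to 225% in Si2AK, 66.4% to 102% in Si1AK, up to 176% in SiC and 82.9% to 115% in NT. Of 8 neuronal and neuroendocrine markers 4 or 5 were above background on all arrays of a group, and the sum, mostly Tubb3, Snap25 and Syp, was 2660% to 3170% in Si2AK, 2040% to 2260% in Si1AK, 2000% to 2260% in SiC and 2250% to 2980% in NT. The 6 fibroblast markers summed to 154% to 191% in Si2AK, 104% to 150% in Si1AK, 99.6% to 153% in SiC and 80.3% to 102% in NT. The part of these cell types in the results was not tested. In bulk RNA, a change in the share of cells that make a message and a change per cell cannot be told apart. With 3 or 4 arrays a group, precision is limited throughout.

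The promoters that hold a searched motif are shown, because they let the signal patterns be read beside the letters in front of each gene. RefSeq promoter windows of build GRCm38.p6 matched all 6 genes. The last 150 bases before the start are printed 5′ to 3′ on the gene's strand, with the motif in capitals. Fgf21 lies at chr7:45615491-45615640 on the minus strand, Cds1 at chr5:101764980-101765129 on the plus strand, and Car6 at chr4:150201136-150201285 on the minus strand.
Fgf21: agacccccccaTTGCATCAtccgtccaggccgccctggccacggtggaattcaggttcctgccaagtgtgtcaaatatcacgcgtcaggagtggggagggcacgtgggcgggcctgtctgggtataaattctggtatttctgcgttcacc
Cds1: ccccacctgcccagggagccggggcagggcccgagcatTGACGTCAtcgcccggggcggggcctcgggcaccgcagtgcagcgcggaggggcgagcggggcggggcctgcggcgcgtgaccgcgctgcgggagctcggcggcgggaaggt
Car6: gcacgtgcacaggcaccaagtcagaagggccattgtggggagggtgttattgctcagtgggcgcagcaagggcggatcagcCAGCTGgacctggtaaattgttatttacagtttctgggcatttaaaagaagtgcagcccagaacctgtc
The capitals in Fgf21 are the C/EBP-ATF element TGATGNAA on the opposite strand, the kind of site that ATF4 is known to bind, and they begin at position -139 from the start. Over windows from 250 bases before to 50 after the start, both strands, this element was in 1 of the 6 genes and in 3.97% of 32851 RefSeq promoters. The capitals in Cds1 are the cAMP element TGACGTCA at position -112, found in 1.79% of promoters. The capitals in Car6 are the E-box CAGCTG at position -69, found in 16.3% of promoters, and Fgf21 held it too, at position 21 after the start. The unfolded protein element TGACGTGG (0.676% of promoters), the E-box CATATG (3.91%) and the endoplasmic reticulum stress element (0.119%) were in none of the 6 windows. No searched letters were found in the windows of Adm2, Tac1 or Bhlha15, and a match is a description of letters only.

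Fgf21, the liver and stress hormone, gave signal with Si2AK and lay below background with Si1AK. Its level was 26.0%, 21.7% and 16.2% in Si2AK samples 1 to 3, against 0.41%, 0.356%, 0.889% and 1.18% in Si1AK samples 1 to 4. It was 1.09%, 3.1% and 3.73% in SiC samples 1 to 3 and 6.47%, 3.28%, 1.45% and 3.1% in NT samples 1 to 4. All Si2AK samples stood above every other sample. No Si1AK array, 2 of 3 SiC arrays and 2 of 4 NT arrays had the probe well above background. Against Si1AK this makes Si2AK at least 12.6-fold higher, where a bound sets the dim group at the lowest signal counted as well above background on its arrays. This bound, 3.66 on the log2 scale, and all later ones hold only for the background step behind these levels. They are approximate, since a probe not counted as well above background can lie above that lowest signal. Bhlha15 did so on SiC replicate 2, at 3.13% against 2.79%. With normexp correction the log2 difference from Si1AK was 2.01, and in the authors' deposited table it was 1.85. Against SiC the difference was 3.17 ± 0.62 on the log2 scale and against NT 2.74 ± 0.58 (moderated SE, n = 3 Si2AK, 3 SiC and 4 NT). With both raised arrays left out the measured differences of Si2AK were 5.04 from Si1AK, 2.59 from SiC and 2.72 from NT. Its probe lies at chr7:52869305-52869364 of build mm9, per the file headers.

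Adm2, the calcitonin-family peptide, was well above background on all 14 arrays. Its level was 42.3%, 49.4% and 42.0% in Si2AK samples, against 3.62%, 3.59%, 5.90% and 9.81% in Si1AK samples. It was 49.8%, 11.9% and 16.0% in SiC samples and 15.9%, 6.97%, 12.3% and 12.6% in NT samples. SiC replicate 1, the array of raised signal, stood as high as the Si2AK samples, so Si2AK and SiC overlapped, and the other 2 SiC samples lay among or just above the NT samples. Only 0.321% of the dim probes reached the level of Adm2 on that array. The log2 difference was 3.09 ± 0.49 for Si2AK minus Si1AK (n = 3 and 4), 1.96 ± 0.49 for Si2AK minus NT, and 1.07 ± 0.52 for Si2AK minus SiC. Within slides the last of these was -0.12 on slide 1, where SiC replicate 1 is the only SiC sample, and 1.60 on slide 2. Without both raised arrays it was 1.61, and the differences of Si2AK from Si1AK and NT were 3.01 and 1.88. Its probe lies at chr15:89155040-89155099 (mm9).

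Tac1, the substance P precursor, was below background in both Si1AK and NT cells. Its level was 10.8%, 11.4% and 22.2% in Si2AK samples, against 1.87%, 0.467%, 0.512% and 1.03% in Si1AK samples. It was 5.48%, 3.70% and 2.21% in SiC samples and 0.889%, 1.14%, 1.61% and 1.04% in NT samples. In measured level Si2AK was highest, SiC next and well above background on all 3 arrays, and Si1AK and NT overlapped below background. Whether SiC stood apart is not settled. The lowest signal counted as well above background was 4.11%, 3.42%, 2.04% and 2.67% on NT arrays 1 to 4. With normexp correction SiC minus NT was 0.07 and Si1AK minus SiC was -0.57 on the log2 scale. In the authors' deposited table these were 0.11 and -0.06. With the main background step Si2AK was at least 8.46-fold higher than Si1AK and at least 4.73-fold higher than NT. On the log2 scale it was 1.98 ± 0.52 higher than SiC. With normexp correction the log2 differences of Si2AK were 1.45 from Si1AK, 0.95 from NT and 0.89 from SiC. Leaving out both raised arrays gave measured differences of 4.23 from Si1AK, 2.44 from SiC and 3.76 from NT. Its probe lies at chr6:7512893-7512952 (mm9).

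Bhlha15, the secretory cell factor MIST1, was higher in every Si2AK sample than in any other sample. Its level was 20.3%, 22.1% and 28.6% in Si2AK samples, against 3.01%, 3.84%, 1.88% and 3.25% in Si1AK samples. It was 13.2%, 3.13% and 4.71% in SiC samples and 3.23%, 2.47%, 2.02% and 3.95% in NT samples. Si1AK and NT overlapped, and of the SiC samples replicates 1 and 3 lay above both groups while replicate 2 lay among them. The probe was well above background on all Si2AK and Si1AK arrays but on 2 of 3 SiC arrays and only 1 of 4 NT arrays. The log2 difference was 3.01 ± 0.43 for Si2AK minus Si1AK, 2.02 ± 0.46 for Si2AK minus SiC and 3.05 ± 0.43 for Si2AK minus NT. These differences were 3.06, 2.65 and 3.09 without both raised arrays. Its probe lies at chr5:144955175-144955234 (mm9).

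Car6, the salivary carbonic anhydrase, was well above background everywhere. Its level was 218%, 256% and 448% in Si2AK samples, against 17.6%, 23.1%, 23.4% and 52.7% in Si1AK samples. It was 27.5%, 83.7% and 83.9% in SiC samples and 32.1%, 23.1%, 42.4% and 50% in NT samples. Every Si2AK sample was higher than any other sample, while Si1AK, SiC and NT overlapped one another. The overlap of SiC came from replicate 1, an array of raised signal, while replicates 2 and 3 lay above every Si1AK and NT sample. The log2 difference was 3.46 ± 0.48 for Si2AK minus Si1AK, 2.34 ± 0.51 for Si2AK minus SiC and 3.05 ± 0.48 for Si2AK minus NT. Here SiC replicate 1 was the lowest SiC sample, and without both raised arrays the difference from SiC was 1.90, that from Si1AK 3.56 and that from NT 3.14. Its probe lies at chr4:149561160-149561219 (mm9).

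Cds1, the CDP-diacylglycerol synthase, was well above background on the 3 Si2AK arrays only. Its level was 4.78%, 5.37% and 4.40% in Si2AK samples, against 0.467%, 0.392%, 0.841% and 0.442% in Si1AK samples. It was 2.75%, 0.694% and 0.599% in SiC samples and 0.981%, 1.12%, 2.01% and 0.669% in NT samples. In measured level the Si2AK samples did not overlap with any others, but the signal stayed near the floor. On Si2AK replicate 2 it was matched or passed by 31.9% of the dim probes. The lowest signal counted as well above background on SiC replicate 1 was 5.21%, above the levels of Si2AK replicates 1 and 3. Separation from that sample is thus not settled. With the main background step Si2AK was at least 2.92-fold higher than Si1AK, at least 1.57-fold higher than SiC and at least 1.63-fold higher than NT. With normexp correction these differences were 0.72, 0.38 and 0.12 on the log2 scale, in the same order. The measured differences without both raised arrays were 3.17 from Si1AK, 2.83 from SiC and 2.06 from NT. The other 3 groups give no fold between them, all being below background. Its probe lies at chr5:102252307-102252366 (mm9).

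**Figure D1:**
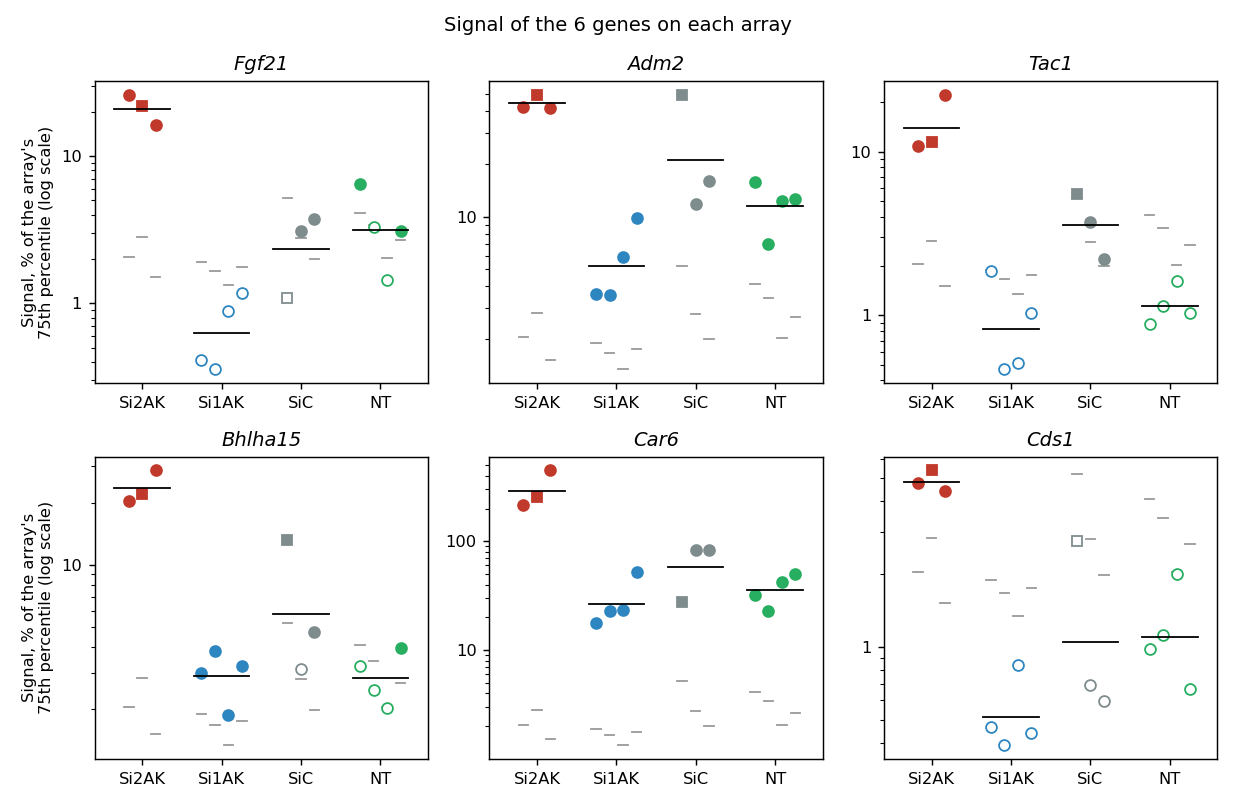
Signal of each of the 6 genes on each of 14 arrays, in percent of the array's 75th percentile on a log scale, by group (Si2AK, Si1AK, SiC, NT) with replicates left to right. Filled symbols are well above background and open ones are not, squares are the 2 arrays of raised signal, black lines are geometric means, and short grey lines are each array's lowest signal counted as well above background. Fgf21, Tac1 and Cds1 are open on all 4 Si1AK arrays and filled on all 3 Si2AK arrays.

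The selection shows in the counts. In Si2AK all 6 genes lay above Si1AK without overlap, where 17.1% of all genes tested did so in that direction, and nothing is read from this count since it chose the genes. The median log2 difference of Si2AK minus Si1AK was 3.35, or 3.08 with dim genes at their bounds, against 0.09 for all genes. Within slide 1 the single differences ran between 2.64 (Bhlha15) and 5.96 (Fgf21), and within slide 2 between 2.46 (Adm2) and 4.93 (Tac1). Without both raised arrays they ran between 3.01 (Adm2) and 5.04 (Fgf21). With normexp correction the median was 1.82 and in the authors' deposited table it was 1.58, with Car6 at 3.13 and 3.04 and Cds1 at 0.72 and 0.60.

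Against the controls, Si2AK was higher in all 6 genes. It did not overlap with SiC in 5 of 6 genes (16.4% of all genes in that direction), Adm2 being the exception, nor with NT in all 6 (13.7%). The count against SiC includes Cds1, whose separation from SiC replicate 1 is not settled. These comparisons use the Si2AK arrays that chose the genes and carry no test. The median log2 difference was 2.11 from SiC and 2.89 from NT, against -0.02 and 0.02 for all genes. On slide 1, with 2 Si2AK samples and SiC replicate 1 alone, the median difference from SiC was 0.95, and on slide 2, with 1 Si2AK and 2 SiC samples, it was 2.60. With normexp correction the medians were 1.0 from SiC and 1.15 from NT.

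Si1AK was lower than SiC on average in all 5 measurable genes, though for Bhlha15 not under every scaling. It lay below SiC without overlap in 2 genes, Adm2 and Tac1 (8.88% of all genes in that direction), and below NT in 1, Fgf21 (12.5%). These comparisons use the Si1AK arrays that helped choose the genes, so they carry no test and nothing is read from the counts. Adm2 differed by -2.02 ± 0.49 on the log2 scale between Si1AK and SiC (n = 4 and 3) and by -1.13 ± 0.45 between Si1AK and NT (n = 4 each). Leaving out both raised arrays made the measured Si1AK minus SiC differences -1.40 for Adm2, -1.79 for Tac1, -2.44 for Fgf21, -0.40 for Bhlha15 and -1.65 for Car6. With the main background step Si1AK was at least 2.14-fold lower than SiC for Tac1. For Fgf21 it was at least 1.41-fold lower than SiC and at least 1.89-fold lower than NT. With normexp correction Si1AK minus SiC was -0.57 for Tac1 and -0.40 for Fgf21 on the log2 scale. In the authors' deposited table these were -0.06 and -0.11. Fgf21 in Si1AK minus NT was -0.94 with normexp correction and -0.45 in the authors' deposited table. Bhlha15 and Car6 differed by -1.0 ± 0.43 and -1.12 ± 0.48 between Si1AK and SiC, with overlapping samples. The same genes differed by 0.04 ± 0.40 and -0.41 ± 0.44 between Si1AK and NT, with overlapping samples again. The median of Si1AK minus SiC was -1.51 (-1.10 over the 5 measurable genes with bounds, -0.06 for all genes). It was -0.55 with normexp correction, -0.44 with quantile normalization and -0.09 in the authors' deposited table. In quantile-normalized values Bhlha15 differed by 0.53 and in the authors' deposited table by 0.13, so its direction depends on the scaling.

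**Figure D2:**
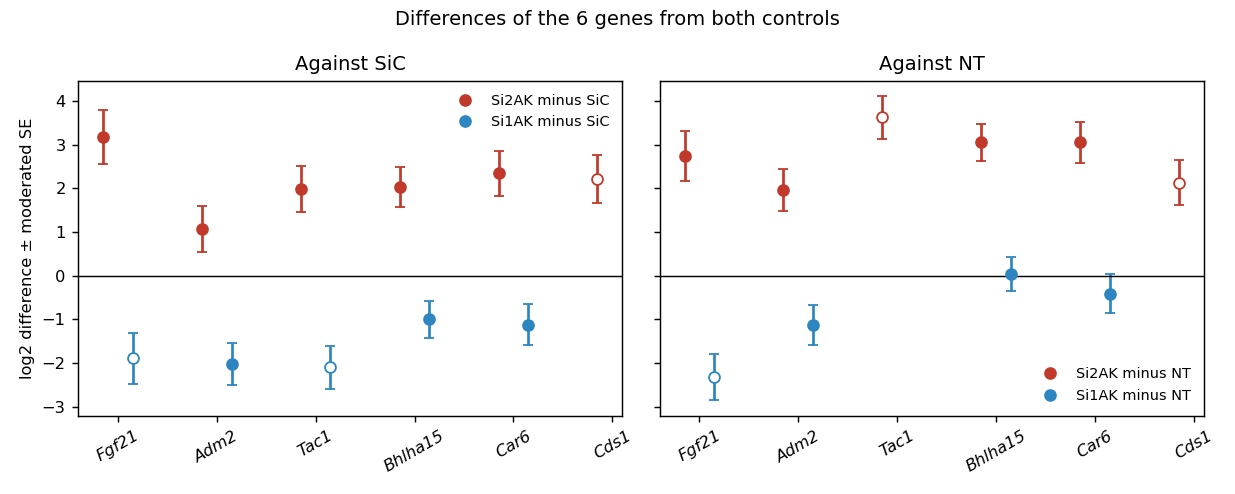
Log2 differences of Si2AK and of Si1AK from SiC (left panel) and from NT (right panel) for the 6 genes, with bars for the moderated standard error. Open circles mark differences where one group was not well above background on any of its arrays, so the measured size is uncertain and the text gives a bound; pairs below background in both groups are left out. All Si2AK values are above 0, and of the Si1AK values only Bhlha15 against NT, at 0.04, is.

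The control siRNA offers the one comparison, SiC minus NT, whose own samples did not choose the genes. Its test is not wholly separate from that choice, since the fit takes its spread from all 14 arrays. Fgf21 and Cds1 also entered the tested set only through the Si2AK arrays. Cds1 was below background on all arrays of both groups, so its outcome says nothing. Of the 6 genes, none passed in SiC minus NT by limma (adjusted p below 0.05), as did 0% of all genes tested; 7.78% of all genes had an unadjusted p under 0.05. Tac1 had the smallest p of the 6, with a log2 difference of 1.64 ± 0.48, an unadjusted limma p of 0.00573 and an adjusted p of 0.612. SiC was at least 1.2-fold higher than NT there with the main background step. Measured levels of the 3 SiC samples did not overlap with those of the 4 NT samples, all below background. Such separation held for 1.6% of all genes in that direction. The Tac1 difference was 2.44 on slide 1 and 1.15 on slide 2, and it was 0.07 with normexp correction, 0.75 with quantile normalization and 0.11 in the authors' deposited table. For the other measurable genes the SiC minus NT difference was 1.04 ± 0.43 for Bhlha15 (limma adjusted p = 0.612), 0.89 ± 0.49 for Adm2 (0.614), 0.71 ± 0.48 for Car6 (0.632) and -0.43 ± 0.58 for Fgf21 (0.781). Without both raised arrays the differences were 1.33 for Tac1, 0.44 for Bhlha15, 0.27 for Adm2, 1.24 for Car6 and 0.12 for Fgf21.

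The other genes of each pathway were taken from 9 lists. A gene was called if its limma adjusted p was below 0.05, over all genes tested. In Si2AK minus SiC 8.55% of all genes rose and 4.73% fell, in Si2AK minus NT 7.88% rose and 7.99% fell, in Si2AK minus Si1AK 6.34% rose and 6.31% fell, and in Si1AK minus SiC 3.23% rose and 1.19% fell. The 3 Si2AK comparisons share the Si2AK samples, and both comparisons with SiC share the SiC samples.

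Among regulators and targets of the integrated stress response, 12 of 23 genes rose in Si2AK over SiC and the other 11 were not called. None fell in that comparison, with a median log2 difference of 0.60 (-0.02 for all genes), and 15 rose and 1 fell in Si2AK minus Si1AK, with a median of 0.73 (0.09 for all genes). In Si2AK minus NT 12 rose and 0 fell, with a median of 0.84 (0.02 for all genes). The 1 that fell was Eif2ak2, the kinase PKR, by 0.87, named here after its value was seen. In Si1AK minus SiC none of the 23 passed, with a median of -0.18. Eif2ak3, the PERK kinase, had levels of 517% to 597% in Si2AK, 257% to 331% in Si1AK, 220% to 311% in SiC and 261% to 292% in NT. It rose by 1.07 ± 0.13 in Si2AK over SiC (limma adjusted p = 0.00056). Ppp1r15a (GADD34), which directs the dephosphorylation of eIF2alpha, ranged over 1470% to 2200% in Si2AK, against 286% to 633% in SiC, and rose by 1.82 ± 0.29 (0.0022). Trib3, a pseudokinase induced by ATF4 and CHOP, ranged over 3920% to 5440% in Si2AK, against 1040% to 2180% in SiC, and rose by 1.57 ± 0.29 (0.00453).

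Chac1, a glutathione-degrading enzyme, rose by 1.11 ± 0.20 in Si2AK over SiC (limma adjusted p = 0.00363). Atf5, a factor related to ATF4, rose by 0.95 ± 0.12 (0.000646), and Sesn2, a stress-induced restrainer of mTORC1, by 1.01 ± 0.14 (0.000869). Ddit3 (CHOP) rose by 1.35 ± 0.31 (0.0144), a call that was lost without Si2AK replicate 3. Atf4 itself, whose output is controlled in large part by translation, differed by 0.34 ± 0.15 from SiC (adjusted p = 0.197) and rose by 0.52 ± 0.14 over Si1AK (0.0359), a call lost without Si2AK replicate 2 or 3 or Si1AK replicate 1, 2 or 3. Gdf15, a stress hormone often measured beside FGF21, differed by 0.12 ± 0.54 from SiC (0.942), with overlapping ranges of 6.58% to 15.6% in Si2AK and 3.77% to 21.7% in SiC. With only the 6 samples of Si2AK and SiC in the fit, none of the 23 genes passed in Si2AK minus SiC, and 103 did over all genes. In that comparison 12 passed with slide as a block, 5 on slide 1 alone and 2 on slide 2 alone. Without SiC replicate 1, 4 of the list passed in Si1AK minus SiC.

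In the branch of XBP1 and ATF6, 9 of 20 genes tested rose and 1 fell in Si2AK minus SiC (median 0.30), while 10 were not called. A smaller number, 6, rose and 0 fell in Si2AK minus NT (median 0.17). In the remaining comparisons 10 rose and 1 fell in Si2AK minus Si1AK (median 0.39), and none passed in Si1AK minus SiC (median -0.02). The 1 that fell against SiC and Si1AK was Atf6, by 0.42 and by 0.41, named after its values were seen. In Si2AK minus SiC 6 of the 20 passed without both raised arrays, 10 with slide as a block, 2 on slide 1 alone, 1 on slide 2 alone and 0 with only these groups in the fit. Dnajb9, an endoplasmic reticulum co-chaperone, ranged over 427% to 580% in Si2AK, against 147% to 221% in SiC, and rose by 1.45 ± 0.18 (limma adjusted p = 0.000543). Herpud1, a degradation factor of the endoplasmic reticulum membrane, ranged over 1870% to 1970% in Si2AK, against 714% to 945% in SiC, and rose by 1.20 ± 0.15 (0.000476). Xbp1, the factor upstream of MIST1 in secretory cells, ranged over 5400% to 6300% in Si2AK, 3030% to 3770% in Si1AK, 3090% to 3760% in SiC and 3170% to 4450% in NT. It rose by 0.75 ± 0.14 over SiC (0.00574) and by 0.77 ± 0.14 over Si1AK (0.00308); 1 probe does not tell its spliced and unspliced forms apart. Syvn1, a ubiquitin ligase of the endoplasmic reticulum, rose by 0.80 ± 0.15 over SiC (0.00544) and Edem1, a factor that sorts misfolded glycoproteins for degradation, by 1.11 ± 0.13 over Si1AK (0.000274). Hspa5, the chaperone BiP, rose by 0.54 ± 0.14 over SiC (0.0276), and this call was lost without Si2AK replicate 3 and without SiC replicate 1.

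Other genes of secretory cells gave 2 calls or fewer in each comparison, and nothing is read from these counts. Over all genes 8.55% rose in Si2AK minus SiC, 7.88% in Si2AK minus NT, 6.34% in Si2AK minus Si1AK and 3.23% in Si1AK minus SiC. Of 13 tested of 21 granule and secretory genes, 2 rose in Si2AK minus SiC, 2 in Si2AK minus NT, 1 in Si2AK minus Si1AK and 1 in Si1AK minus SiC, and none fell. In Si2AK minus SiC 0 passed with only the compared groups in the fit and on each slide alone. The last was Rab37, a vesicle GTPase named after its value was seen, which rose by 0.49 but lost the call in 10 of 14 fits that left out 1 sample. Scg5, a chaperone of prohormone convertase 2, ranged over 12.6% to 14.2% in Si2AK, 6.46% to 8.22% in Si1AK and 6.04% to 9.27% in SiC. It rose by 0.92 ± 0.18 over SiC (limma adjusted p = 0.00607) and by 0.89 ± 0.17 over Si1AK (0.00449). Creb3l2, a membrane-bound factor of the secretory pathway, rose by 0.88 ± 0.17 over SiC (0.00583) and differed by 0.30 ± 0.16 from Si1AK (0.302). The median of the 13 genes in Si2AK minus SiC was 0.11.

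None of the tested receptors and relatives of the 3 peptide genes rose in Si2AK over SiC or over Si1AK, and 1, Iapp, rose over NT. Over all genes 8.55% rose in Si2AK minus SiC, 6.34% in Si2AK minus Si1AK and 7.88% in Si2AK minus NT. With so few genes tested, nothing is read from these counts. Klb, the beta-Klotho co-receptor of FGF21, was not above background in any whole group and was not tested. Fgfr1, the receptor it pairs with, ranged over 2250% to 3060% in Si2AK and 1890% to 3120% in SiC and differed by 0.02 ± 0.21 (limma adjusted p = 0.98). Of 7 tested of 10 genes in that list none rose in Si2AK over SiC, Si1AK or NT. Fgf23, a related hormone, fell by 0.61 ± 0.18 in Si2AK minus SiC (0.0405), a call lost in 11 of 14 fits that each left out 1 sample, and by 0.68 in Si2AK minus NT (0.0162), a call lost without Si2AK replicate 2. Ppargc1a, a metabolic coactivator, fell by 0.89 ± 0.17 in Si2AK minus Si1AK (0.00511) and by 0.67 in Si2AK minus NT (0.0201), a call lost without Si2AK replicate 1 or 3 or NT replicate 3.

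For Adm2, none of 5 tested of 9 receptor and peptide genes passed in Si2AK minus SiC or Si2AK minus Si1AK, and 1 did in Si2AK minus NT. That was Iapp, the gene of the related peptide amylin, named here after its values were seen. It ranged over 11.5% to 14.7% in Si2AK, 2.80% to 4.59% in Si1AK, 2.26% to 12.4% in SiC and 0.81% to 3.61% in NT, where it was well above background on 1 of 4 arrays. It rose by 2.90 ± 0.56 in Si2AK over NT (limma adjusted p = 0.00478), and differed by 1.86 ± 0.56 from Si1AK (0.0521) and by 1.63 ± 0.60 from SiC (0.105). The difference from SiC passed without SiC replicate 1, and that from Si1AK without SiC replicate 1 or 2 or NT replicate 2 or 4. The receptor gene Calcrl was not above background in any whole group. Ramp1, Ramp2 and Ramp3, its accessory proteins, differed from SiC by -0.42 ± 0.47, -0.00 ± 0.59 and 0.19 ± 0.13 in Si2AK, and the sister peptide Adm by 0.89 ± 0.67. For Tac1, the tachykinin genes Tac2 and Tac4 and the substance P receptor gene Tacr1 were likewise not tested, and 1 of 3 genes tested of 8 passed. That was Tacr2, the neurokinin A receptor gene, which ranged over 202% to 261% in Si2AK, 354% to 379% in Si1AK and 293% to 481% in SiC. It fell by 0.70 ± 0.17 in Si2AK minus SiC (limma adjusted p = 0.0197), a call lost without Si2AK replicate 2, SiC replicate 1 or SiC replicate 2, and by 0.62 ± 0.16 in Si2AK minus Si1AK (0.0259), a call lost without Si2AK replicate 2 or any 1 of the Si1AK samples. In Si2AK minus NT it fell by 0.75 ± 0.16 (0.00797). Over all genes 13.3% passed in Si2AK minus SiC, 12.6% in Si2AK minus Si1AK and 15.9% in Si2AK minus NT. Nothing is read from the counts of these small lists.

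Of 11 tested of 15 other carbonic anhydrases, 0 were called in Si2AK minus SiC, Si2AK minus Si1AK and Si1AK minus SiC, and 1, Car2, in Si2AK minus NT. Over all genes 13.3%, 12.6%, 4.42% and 15.9% were called, in the same order, and nothing is read from these counts. Car12, a membrane form, differed by -0.06 ± 0.18 from SiC in Si2AK, and Car13, a cytosolic form, by 0.27 ± 0.10 (limma adjusted p = 0.121). Car2, the abundant cytosolic form of many tissues, ranged over 5.26% to 9.94% in Si2AK, 1.60% to 2.43% in Si1AK, 1.52% to 21.2% in SiC and 0.597% to 2.21% in NT, and differed by 1.78 ± 0.79 from Si1AK (0.194). It was below background on all NT arrays, and Si2AK was at least 2.3-fold higher than NT (adjusted p = 0.0437), a call lost in 10 of 14 fits that each left out 1 sample and with normexp correction (difference 0.36). Without SiC replicate 1, Car2 passed in Si2AK minus SiC and in Si2AK minus Si1AK.

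Around Cds1, some enzymes on either side of CDP-diacylglycerol rose in Si2AK. Of 21 genes 5 rose in Si2AK minus SiC (median 0.24), 5 in Si2AK minus NT (median 0.17), 4 in Si2AK minus Si1AK (median 0.13) and 2 in Si1AK minus SiC (median 0.14), and none fell. Over all genes 8.55%, 7.88%, 6.34% and 3.23% rose, in the same order. In Si2AK minus SiC 6 passed with slide as a block and 5 without both raised arrays, but 0 with only the compared groups in the fit and 0 on each slide alone. Cds2, the sister gene of Cds1, ranged over 361% to 406% in Si2AK and 312% to 337% in SiC. It was not called, but its difference of 0.23 ± 0.08 (limma adjusted p = 0.107) was close to the list's median of 0.24. Cdipt, which makes phosphatidylinositol, rose by 0.44 ± 0.08 (0.00579) and Crls1, which makes cardiolipin, by 0.51 ± 0.10 (0.00569). Lpin3, a phosphatidate phosphatase, rose by 0.83 ± 0.12 (0.000989) and Dgka, a diacylglycerol kinase, by 0.73 ± 0.12 (0.00277). Agpat4, an acyltransferase of phosphatidate synthesis, rose by 0.74 ± 0.13 in Si2AK (0.00389) and by 0.58 ± 0.12 in Si1AK (0.0222) over SiC. The Agpat4 call in Si1AK was lost without Si1AK replicate 1 or 2 or SiC replicate 1, and that of Lpin3 in Si1AK (0.46 ± 0.11, 0.036) in 9 of 14 fits that left out 1 sample.

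Among 43 further peptide hormones and stress cytokines 20 were tested. In Si2AK minus SiC 4 rose and 1 fell, in Si2AK minus NT 4 rose and 1 fell, in Si2AK minus Si1AK 2 rose and 1 fell, and in Si1AK minus SiC 3 rose and 1 fell. Over all genes 8.55%, 7.88%, 6.34% and 3.23% rose, in the same order, and 4.73%, 7.99%, 6.31% and 1.19% fell. Nothing is read from these counts. Of the 5 called in Si2AK minus SiC, 2 passed with only the compared groups in the fit and 1 on each slide alone. Pthlh, the parathyroid hormone-related peptide that keratinocytes make, ranged over 5650% to 6100% in Si2AK, 2990% to 3640% in Si1AK, 2600% to 3000% in SiC and 2590% to 3250% in NT. It rose by 1.07 ± 0.11 over SiC (limma adjusted p = 0.00015) and by 0.81 ± 0.10 over Si1AK (0.000282). Nppb, the brain natriuretic peptide gene, and Edn2, an endothelin gene, rose over SiC with both siRNAs, and Inhbb, an inhibin subunit gene named after its value was seen, rose by 0.54 in Si1AK. Nppb rose by 2.16 ± 0.38 in Si2AK (0.00334) and by 1.90 ± 0.35 in Si1AK (0.0113). Edn2 rose by 0.86 ± 0.11 in Si2AK (0.000629) and by 0.74 ± 0.10 in Si1AK (0.00239).

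Angptl6, a secreted angiopoietin-like protein, was highest in Si2AK, as the 6 genes were on average. Its level ranged over 149% to 200% in Si2AK, 57.7% to 63.0% in Si1AK, 91.7% to 101% in SiC and 74.4% to 94.9% in NT. It rose by 0.88 ± 0.12 in Si2AK minus SiC (limma adjusted p = 0.000831) and by 1.53 ± 0.11 in Si2AK minus Si1AK (1.07e-05), and it fell by 0.66 ± 0.11 in Si1AK minus SiC (0.00702). Apln, the apelin gene, ran the other way, with 21.2% to 27.2% in Si2AK, 39.9% to 46.0% in Si1AK and 30.1% to 34.4% in SiC. It fell by 0.89 ± 0.13 in Si2AK minus Si1AK (0.000803) and by 0.50 ± 0.14 in Si2AK minus SiC (0.0309). The call against SiC was lost without Si2AK replicate 1 or 2 or SiC replicate 2 or 3, and in the authors' deposited table the difference was 0.03.

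**Figure D3:**
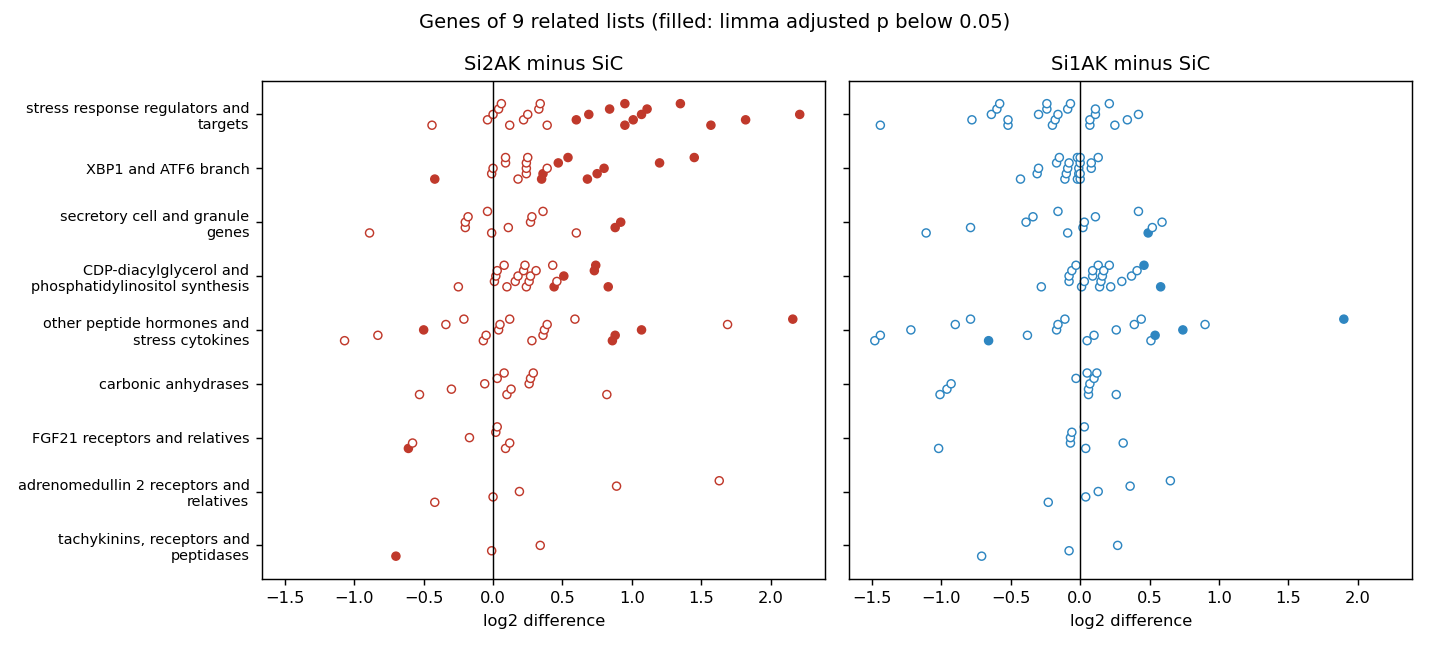
Log2 difference of each tested gene of the 9 lists, for Si2AK minus SiC (left panel) and Si1AK minus SiC (right panel), 1 circle a gene, filled where the limma adjusted p was below 0.05. In the top row 12 of 23 stress response genes are filled on the left and none on the right.

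The 6 genes ran alike over the 14 arrays, which the choice of genes by the Si2AK samples goes some way to set. Pearson correlations of their log2 levels ranged between 0.679 (Car6 and Cds1) and 0.883 (Tac1 and Bhlha15) over 15 pairs, as a description, since arrays of 1 group share their treatment and the raised arrays are among them. The same measure was run between the mean profile of the 6 and 14441 genes with a symbol, the 6 among them, and the median was 0.083. Apart from the 6, the most alike was Slc7a3, a transporter of cationic amino acids, at 0.974. It was followed by Angptl6 (0.965), Tapbpl (0.963), which encodes a chaperone of antigen presentation, the cytokine gene Il1b (0.958), and Gm10516 (0.953). Then came the glycine transporter gene Slc6a9 (0.949), the sterol acyltransferase gene Soat2 (0.948), the glycerol phosphate acyltransferase gene Gpat3 (0.948), the protease inhibitor gene Serpinb1a (0.945) and Maats1 (0.940). Without both raised arrays, Slc7a3 stood at 0.986 and 2nd, while Maats1 stood at 0.919 and 94th.

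The nearest genes differed from member to member. For Car6 they were Ddit3 (0.987), Gtpbp2 (0.975), which encodes a GTP-binding protein, and Aldh1l2 (0.975), an enzyme of mitochondrial folate metabolism. For Fgf21 they were Gm4316 (0.961), the asparagine synthetase gene Asns (0.949) and the serine synthesis gene Psph (0.948). For Adm2 they were Pck2 (0.959), the mitochondrial phosphoenolpyruvate carboxykinase gene, Tent5a (0.948) and Fut1 (0.927). For Tac1 they were Slc7a3 (0.920), Il1b (0.917) and Maats1 (0.911). For Bhlha15 they were the desmosomal cadherin gene Dsg3 (0.937), Tmprss11e (0.931) and Il1b (0.929), and for Cds1 Gm10516 (0.926), Dsg3 (0.917) and Kcnk7 (0.908). Several of these ranks did not hold without both raised arrays. For Bhlha15 the same 3 genes then stood 85th, 89th and 70th, and for Cds1 16th, 39th and 65th. Maats1 stood 42nd for Tac1 and Fut1 43rd for Adm2, while the genes of Car6 and Fgf21 stood 6th or nearer. The closest of these pairs, Car6 and Ddit3, kept 0.987 without both raised arrays. Ddit3 ranged over 496% to 690% in Si2AK, 117% to 214% in Si1AK, 129% to 291% in SiC and 154% to 215% in NT, so both genes were highest in the same 3 samples.

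**Figure D4:**
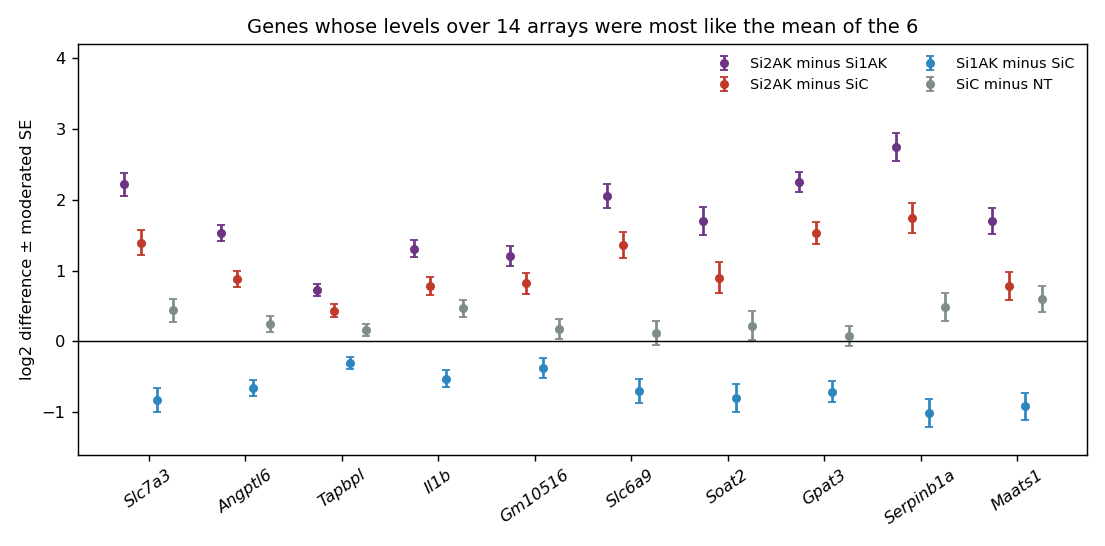
Log2 differences, with the moderated standard error, of the 10 genes whose levels over 14 arrays were most like the mean of the 6 genes, in order of likeness. These genes were chosen for the pattern: Si2AK minus Si1AK and Si2AK minus SiC are above 0 and Si1AK minus SiC is below 0 for all 10.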

How the data were processed

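RNA of the 14 samples was hybridised to 1-colour Agilent arrays, 600 ng of Cy3-labelled product each, on 2 slides. Per the file headers, Agilent Feature Extraction 10.7.3.1 made the processed signal, a background-subtracted intensity not scaled between arrays, and the marks (another unit, 0 or 1) for spots well above background. A value table deposited by the authors gives log2 values, with limma named in the submitters' processing notes and a background step that is unknown (each column's median is 6.51, r with the scanner's log2 mean signal at least 0.991, higher for brighter spots and not centred per gene).

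Of 62976 spots, 59305 were not controls. Outlying and uneven spots were left out, and spots were averaged to 55681 probes, 27650 of them named through RefSeq. Log2 processed signal minus each array's 75th percentile was used. Probes well above background on all arrays of at least 1 group (30299) were kept and the brightest stood for its gene (21356 genes, 14600 with a symbol; 296 lacked a value in some sample). No spot was saturated. limma 3.58.1 in R 4.3.3 (lmFit, eBayes, Benjamini-Hochberg over all genes, 10 residual degrees of freedom) fitted 4 groups at once, after a test on simulated data. Deviations of same-numbered samples from their group means correlated above 0.1 in 12 of 19 pairs. Every pair did so only for Si1AK and NT (4 of 4, 0.118 to 0.24), so the numbers were taken to pair those groups alone. Same-numbered Si1AK and NT samples also share a slide, so pairing and slide cannot be told apart. The spread on a log2 difference is limma's moderated standard error.

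The 6 genes and the lists were chosen with earlier results of these data known. Named genes are the 6, the called list genes with the 4 smallest adjusted p in Si2AK minus SiC and in Si2AK minus Si1AK, 20 fixed relatives, the 10 genes most like the mean profile and the 3 most like each member. Alternatives were normexp background correction (offset 50), quantile normalization, the authors' table, other filters, slides, replicate numbers as a block, fewer groups, other probes and samples left out. A median of always detected probes as the reference level was added after seeing the data.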

Additional observations from a re-analysis of the deposited data

How the results depend on the processing

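Si2AK was above Si1AK in all 158 values of single genes over the alternatives, and above SiC in 157, with Adm2 on slide 1 (-0.12) as the exception. The alternatives refit the arrays that chose the genes, so nothing is read from these counts. Sizes moved with the background step. The median log2 difference of the 6 genes was 3.35 for Si2AK minus Si1AK (1.82 with normexp correction, 1.58 in the authors' deposited table), 2.11 for Si2AK minus SiC (1.0, 1.33, and 0.95 on slide 1 alone) and 2.89 for Si2AK minus NT (1.15 and 1.39). It was -1.51 for Si1AK minus SiC (-0.55, -0.09, and -0.44 with quantile normalization), -0.79 for Si1AK minus NT (-0.13 in the authors' deposited table) and 0.80 for SiC minus NT (0.10, 0.11, 0.04 with quantile normalization, 0.36 without both raised arrays and 1.81 on slide 1 alone). The cause was not tested. With 1 sample left out these medians ranged between 3.23 and 3.59, 1.84 and 2.45, 2.66 and 3.05, -1.82 and -1.35, -0.91 and -0.57, and 0.36 and 0.90, in the same order. A median over probes well above background on all arrays could not be given, since 4 of the 6 genes are left out by that filter.

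Counts moved more. In Si2AK minus Si1AK 2701 genes were called (1625 with no filter on dim probes, 351 on slide 1 alone, 400 on slide 2 alone, 1784 to 3811 with 1 sample left out) and 37 list genes (10, 11 and 29 to 44 on slide 1, slide 2 and with 1 sample left out). In Si2AK minus SiC 2837 genes were called (1547 with no filter, 159 and 191 on slides 1 and 2, 103 with only the compared groups in the fit, 1834 to 2849 with 1 sample left out) and 36 list genes (8, 5, 2 and 31 to 38). In Si2AK minus NT 3389 genes were called (2075 with no filter, 397 and 540 on slides 1 and 2, 2355 to 4542 with 1 sample left out) and 35 list genes (13 and 10 on slides 1 and 2, 30 to 44 with 1 sample left out). In Si1AK minus SiC 945 genes were called (421 with no filter, 1431 with slide as a block, 0 and 36 on slides 1 and 2, 275 with only the compared groups, 436 to 922 with 1 sample left out) and 7 list genes (13 in the authors' deposited table, 3 with no filter, 0 on each slide, 1 with only the compared groups, 3 to 9 with 1 sample left out). In SiC minus NT limma called 0 genes (1662 at an unadjusted p under 0.05), 1 with quantile normalization, 2 with slide as a block, 1 on slide 2 alone, 5 without both raised arrays and 0 to 9 with 1 sample left out; no list gene was called with 1 sample left out. Slides alone hold fewer samples. Of 5520 values of single named genes outside the 6 under alternatives, 5165 kept their side of the threshold, 294 lost a call, 60 gained one, and 1 turned its sign with a call on one side, Apln in Si2AK minus SiC (0.03 in the authors' deposited table). Another 251 values, of 72 differences, turned their sign with no call on either side, among them Adm, Car2 and Gdf15 in Si2AK minus SiC.

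With a replicate block the median of the 6 genes was -0.79 for Si1AK minus NT, as without it, 3.48 for Si2AK minus Si1AK and 2.11 for Si2AK minus SiC, and 2513, 2768, 2968, 790 and 0 genes were called in Si2AK minus Si1AK, Si2AK minus SiC, Si2AK minus NT, Si1AK minus SiC and SiC minus NT. Signal near background limits Fgf21, Tac1 and Cds1, whose differences are bounds wherever a whole group was dim, and Bhlha15, well above background on 1 of 4 NT and 2 of 3 SiC arrays.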
